A study of Arabidopsis thaliana with 36 samples.

Results

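In the opt3-2 mutant of Arabidopsis thaliana, 91 genes were expressed in the opposite sense in roots and leaves relative to the wild type Columbia-0. They were chosen from the measured values: a member had a mean of at least 5 CPM (reads of a gene per 1000000 counted reads) in a root group and in a leaf group, a ratio of group means (opt3-2 over Columbia-0) of at least 1.4 in one organ and at most 0.71 in the other, and no overlap of replicates between genotypes in either organ. Of 28775 genes in the deposited count table, 13342 reached the level floor, and 34 of these were higher in opt3-2 roots and lower in opt3-2 leaves, while 57 were lower in roots and higher in leaves. The members thus make up 0.682% of the genes above the floor (0.255% and 0.427% in the respective directions), and these shares follow from the rule and are read no further. RNA sequencing covered 4 groups, Columbia-0 roots, opt3-2 roots, Columbia-0 leaves and opt3-2 leaves, each with 3 biological replicates, and the 3 sequencing runs of a replicate were summed. Plants of all groups were kept for 11 days on plates, then for 22 days in hydroponics, with days of 16 h light and nights of 8 h, and each RNA sample pooled 3 to 4 of them. By its labels every group had replete medium, while a treatment text carried by all groups mentions 20 µM CdCl2 for 72 h, and which of these applied is not settled by the sources used here. The mutant groups come from a single line, opt3-2, a viable insertion allele that lowers rather than abolishes OPT3 transcript. Replicates are listed in the order 1, 2 and 3 throughout, and values after ± are SD over the 3 replicates of a group.

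OPT3 is an oligopeptide transporter of phloem companion cells that loads iron, and copper, into the phloem for delivery to sink tissues. When it is impaired, leaves accumulate iron while the signal of sufficient iron does not reach the root, so that roots of opt3 mutants are known to run the iron deficiency response in plants whose leaves are rich in iron. Iron is a cofactor of nitrate and sulfite reduction, and sulfate and nitrate uptake by roots are themselves adjusted to the demand of the shoot.

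The check of the mutated gene and of the organ labels came out as follows. OPT3 transcript was counted at 69.8 to 106 CPM in Columbia-0 leaves and 15.9 to 18.1 CPM in opt3-2 leaves, and at 8.02 to 9.87 CPM against 5.38 to 7.69 CPM in roots, with no overlap in either organ. A list of 12 photosynthesis genes, all detected in every group, summed to 83016 to 86445 CPM in Columbia-0 leaves, 72025 to 75174 CPM in opt3-2 leaves, and 324 to 713 CPM in roots. A list of 9 genes of root cell types summed to 6749 to 7055 CPM in Columbia-0 roots but 3989 to 4620 CPM in opt3-2 roots, and to 45.0 to 71.8 CPM in leaves, where up to 4 of the 9 were at 0 in a sample. The lower sum in opt3-2 roots does not describe each of the 9. By edgeR 2 were called lower (background 7.28%) and 1 higher (background 8.28%) there, with a median log2 difference of -0.26. The 10 phloem genes summed to 1085 to 1228 CPM in Columbia-0 leaves and 841 to 908 CPM in opt3-2 leaves, and to 352 to 367 CPM against 362 to 439 CPM in roots. In bulk tissue, fewer cells of a type and less RNA per cell cannot be told apart, and the part of these shifts in the values of the members was not tested.

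The number of members depended on the scaling of the libraries. The median log2 ratio over genes was -0.08 in roots and 0.06 in leaves with total counts, and 0.00 and 0.03 with TMM, which scales libraries on the bulk of genes. With TMM the same rule gave 55 genes higher in roots and lower in leaves, 33 of them among the 34, and 35 genes in the other direction, 33 of them among the 57. Without replicate 3 of Columbia-0 roots the first direction held 71 genes. That replicate carries runs 2 to 4 in its column names while the other Columbia-0 root replicates carry runs 5 to 7, and the part of the runs in the count was not tested. The scaling also moves roots against leaves: with TMM, log2 leaf over root was higher than with total counts by a median over members of 0.52 in Columbia-0 and 0.39 in opt3-2. Statements below on which organ was higher in replicates use CPM on total counts and hold for that scale. All 182 member ratios, 1 per member and organ, kept their direction with TMM, with the size factors of DESeq2 and with each replicate left out. With a replicate left out this had to follow, as the rule allowed no overlap of genotypes. With the other scalings it was likely beforehand, as the medians moved little beside the thresholds of the rule. Nothing is read from it. Of the 25 members described below in every sample, 22 met the rule with TMM and 22 met it in all 12 sets that lacked a replicate. YLS9, PAP17 and YSL3 did not with TMM, and ZIF1, PAP17 and YSL3 did not in at least 1 of those sets.

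Promoters are the stretch that the members could share without the rule having used it. The 250 bases before and 50 after the annotated start were searched on both strands for 13 short motifs, and shares are given beside those of genes above the level floor, which the members had to pass, and of all genes in the table. The G-box (CACGTG), bound by bHLH and bZIP factors, was held by 20.6% of the 34 promoters of genes higher in roots and lower in leaves (7 promoters) and by 8.77% of the other 57 (5 promoters). Its share was 9.03% of genes above the floor and 7.66% of all. The CCA1-binding site (AAAAATCT), known from the morning loop of the circadian clock, was held by 19.3% of the 57 (11 promoters) and by 2.94% of the 34 (1 promoter). Its share was 8.39% of genes above the floor and 7.78% of all. The W-box (TTGACC), a site of WRKY factors that overlaps neither of these motifs in sequence, was held by 23.1% of members, 14.5% of genes above the floor and 14.03% of all. The evening element (AAAATATCT) was held by 7.69% of members, 2.87% of genes above the floor and 2.799% of all. For the ABRE core (ACGTGTC), which can overlap a G-box, the shares were 9.89% of members, 5.03% of genes above the floor and 4.32% of all. Site II (TGGGCC), bound by TCP factors and common in promoters of growth and translation genes, was held by 9.89% of members, 21.6% of genes above the floor and 15.5% of all. It too was split by direction, with 2.94% of the 34 (1 promoter) and 14.0% of the 57 (8 promoters). The copper response core (GTAC) was held by 49.5% of members, 39.1% of genes above the floor and 39.1% of all. For the E-box (CANNTG), which includes every G-box, the shares were 65.9% of members, 61.6% of genes above the floor and 62.1% of all. CACGCG, known for factors of the iron deficiency response, was held by 5.49% of members, 3.89% of genes above the floor and 3.25% of all. The DRE core (CCGAC) was held by 13.2% of members, 17.01% of genes above the floor and 15.1% of all. For the GCC box (GCCGCC) the shares were 2.198% of members, 2.71% of genes above the floor and 2.59% of all. The MYB core (CAGTTG) was held by 5.49% of members, 7.197% of genes above the floor and 7.84% of all, and the telo box (AAACCCTA) by 2.198% of members, 5.78% of genes above the floor and 6.202% of all. These shares are descriptions of letters in a window, with no test, and a match is not a site of binding.

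The 200 bases upstream of 6 members show where a G-box or a CCA1-binding site lies. Both motifs were picked for printing after the shares of all 13 were seen. They were read from the RefSeq genome of the build TAIR10.1 in the direction of the gene, end at the base before its annotated start, and hold no annotated exon. In the first 3, of genes higher in roots and lower in leaves, capitals mark the G-box. They are PUB23 at chr2:15084560-15084759 on the reverse strand, ACR6 at chr3:329899-330098 on the forward strand and TPPJ at chr5:26022381-26022580 on the reverse strand.
PUB23: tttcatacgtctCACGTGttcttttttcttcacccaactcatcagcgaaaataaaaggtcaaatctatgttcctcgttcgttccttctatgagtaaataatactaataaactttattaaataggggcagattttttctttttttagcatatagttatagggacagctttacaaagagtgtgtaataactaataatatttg
ACR6: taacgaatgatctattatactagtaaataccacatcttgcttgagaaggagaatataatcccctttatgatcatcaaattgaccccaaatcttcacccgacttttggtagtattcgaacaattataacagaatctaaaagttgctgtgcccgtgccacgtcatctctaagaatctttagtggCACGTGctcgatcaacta
TPPJ: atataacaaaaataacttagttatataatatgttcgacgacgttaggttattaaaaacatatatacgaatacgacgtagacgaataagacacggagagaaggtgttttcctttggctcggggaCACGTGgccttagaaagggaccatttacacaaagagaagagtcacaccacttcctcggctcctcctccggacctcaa
In the next 3, of genes lower in roots and higher in leaves, capitals mark the CCA1-binding site, which in FAH1 lies on the other strand. They are AT1G52800 at chr1:19663823-19664022 on the forward strand, FAH1 at chr4:17139778-17139977 on the reverse strand and NIA1 at chr1:29239485-29239684 on the reverse strand.
AT1G52800: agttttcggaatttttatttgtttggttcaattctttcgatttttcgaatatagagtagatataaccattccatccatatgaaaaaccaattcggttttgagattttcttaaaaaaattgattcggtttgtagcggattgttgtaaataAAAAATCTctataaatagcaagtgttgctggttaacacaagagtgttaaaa
FAH1: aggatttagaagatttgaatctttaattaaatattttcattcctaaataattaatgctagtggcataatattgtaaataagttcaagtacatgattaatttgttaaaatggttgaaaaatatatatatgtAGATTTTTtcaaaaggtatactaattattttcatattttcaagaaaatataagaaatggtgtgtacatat
NIA1: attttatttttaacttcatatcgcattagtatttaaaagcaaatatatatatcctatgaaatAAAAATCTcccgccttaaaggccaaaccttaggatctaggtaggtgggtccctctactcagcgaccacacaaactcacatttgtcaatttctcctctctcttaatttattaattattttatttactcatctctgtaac
The G-box began 188 bases before the start in PUB23, 77 in TPPJ and 18 in ACR6, and the CCA1-binding site 138 in NIA1, 70 in FAH1 and 51 in AT1G52800. Matches were thus at no common distance from the start. The stretch of PUB23 also holds a CCA1-binding site, on the other strand and left in lower case.

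Among the 34 genes higher in roots and lower in leaves, the log2 ratio of opt3-2 over Columbia-0 ran from 0.50 to 7.78 in roots (median 1.00) and from -1.47 to -0.50 in leaves (median -0.69). Among the other 57 it ran from -1.52 to -0.50 in roots (median -0.67) and from 0.50 to 3.32 in leaves (median 1.10). In each direction the organ in which the transcript was higher thus showed the wider range. A 2-fold difference in both organs was reached by 5 of the 34, namely PUB23, ASN1, APS3, BEN1 and AT1G29670, and by 7 of the 57, namely AT1G52800, BRG2, DUR3, AT2G17500, CHX16, FAH1 and CYP71B23. At the threshold itself, the root ratio of RAP2.1 was 1.41 and the leaf ratio of ATR2 0.709, just inside, while the root ratio of PAP8 was 1.39 and the leaf ratio of AT1G06550 0.714, just outside. In the other direction, the root ratio of AT1G51790 was 0.7091, just inside, and that of RGXT3 0.7104, just outside. For scale, each organ's terms of the rule alone were met by 442 genes higher (3.31%) and 451 lower (3.38%) in roots and by 1075 higher (8.06%) and 821 lower (6.15%) in leaves. The same direction in both organs was met by 136 genes higher (1.02%) and 77 lower (0.577%). The contrast of genotypes in edgeR, which the rule had in effect already used, called 76 of the 91 in roots (background 15.6%) and 87 in leaves (background 28.1%), and nothing is read from these counts.

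**Figure D1:**
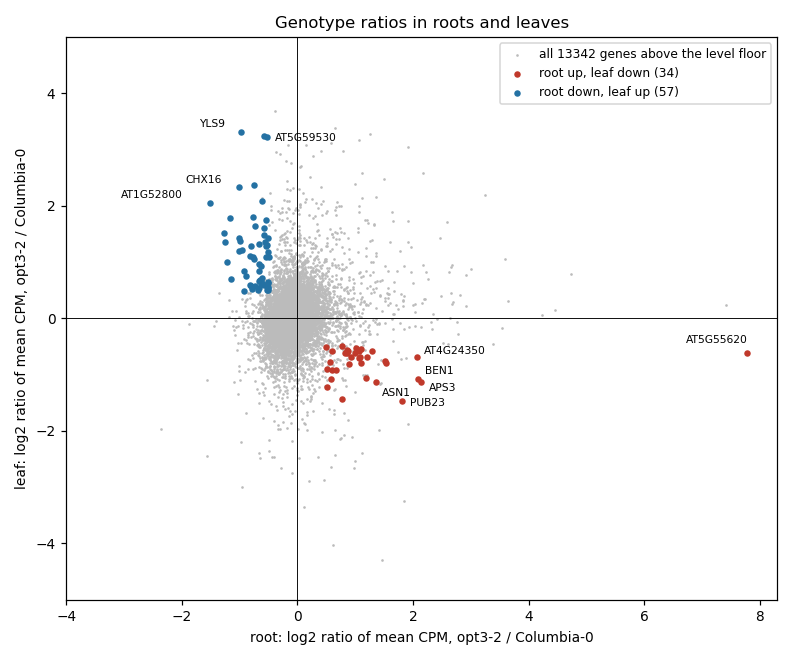
The log2 ratio of mean CPM (opt3-2 over Columbia-0) in roots (horizontal axis) is plotted against that in leaves (vertical axis) for the 13342 genes above the level floor, of which 1 lies beyond the axes. Grey points are all genes, red the 34 members higher in roots and lower in leaves, and blue the 57 members lower in roots and higher in leaves; AT5G55620 stands apart at 7.78 in roots.

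Metal transport was represented by 4 members. ZIF1 (AT5G13740), a tonoplast transporter that moves nicotianamine into the vacuole and so sequesters zinc and affects iron mobility, was higher in opt3-2 roots and lower in opt3-2 leaves. ZIF1 was counted in roots at 31.1, 32.7 and 35.2 CPM in Columbia-0 and at 55.4, 51.1 and 43.7 CPM in opt3-2. ZIF1 leaf levels were 56.2, 48.8 and 47.8 CPM in Columbia-0 against 36.5, 36.4 and 29.1 CPM in opt3-2. In Columbia-0 the gene was more abundant in leaves, and in opt3-2 it was more abundant in roots. For means the log2 ratios were 0.60 in roots and -0.58 in leaves. YSL3 (AT5G53550), a transporter of metal-nicotianamine complexes in the vasculature, moved the other way. In roots, YSL3 stood at 84.02, 82.8 and 80.5 CPM in Columbia-0 against 38.7, 40.9 and 50.3 CPM in opt3-2. In leaves, YSL3 stood at 74.02, 76.8 and 96.2 CPM in Columbia-0 against 116, 111 and 121 CPM in opt3-2. The genotypes were well separated in roots, whereas in leaves replicate 3 of Columbia-0 stood above the other Columbia-0 samples and nearer to opt3-2, and the log2 ratios were -0.93 in roots and 0.50 in leaves. ZIP11 (AT1G55910), of the ZIP family of zinc and iron transporters, was also lower in roots (log2 -0.51) and higher in leaves (0.63). AT5G24580, annotated as a heavy metal transport and detoxification protein, was higher in roots (0.51) and lower in leaves (-0.90).

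On a list of iron deficiency regulators that holds ZIF1, of 23 tested genes, 19 were called higher and 0 lower in opt3-2 roots, and 5 higher and 2 lower in opt3-2 leaves. ZIF1, chosen for its pattern, is among those higher in roots and lower in leaves, and nothing is read from its calls. The median log2 difference of that list was 1.81 in roots and 0.08 in leaves; the share of all genes called was 8.28% higher and 7.28% lower in roots, and 15.4% higher and 12.6% lower in leaves. BHLH100, a bHLH factor that drives the deficiency response, was at 0.583 ± 0.308 CPM in Columbia-0 against 71.5 ± 17.6 CPM in opt3-2 roots (log2 6.99, SE 0.42, adjusted p = 6.55e-07), and at 0.777 ± 0.485 CPM in Columbia-0 against 0.242 ± 0.168 CPM in opt3-2 leaves, where it did not pass the test. MYB10, a factor induced in iron-deficient roots, rose in roots (log2 4.01, SE 0.19, adjusted p = 1.19e-07) from 3.45 to 52.5 CPM and was at 0.915 ± 0.0592 CPM in Columbia-0 against 1.19 ± 0.283 CPM in opt3-2 leaves. ILR3, a bHLH factor acting upstream of them, was the other gene of the list called in opposite directions, rising in roots (log2 0.58, SE 0.06, adjusted p = 4.38e-05) and falling in leaves (log2 -0.19, SE 0.06, adjusted p = 0.0338). That leaf call of ILR3 was lost with the replicate number as a block (adjusted p = 0.0760), with total counts in place of TMM (adjusted p = 0.0767) and without Columbia-0 leaf replicate 2, opt3-2 leaf replicate 2 or opt3-2 leaf replicate 3 (adjusted p up to 0.0729). On the list of iron storage and excess that holds YSL3, of 9 tested genes, 4 were called higher and 1 lower in opt3-2 roots, and 7 higher and 0 lower in opt3-2 leaves. The gene lower in roots was YSL3, which is also among those higher in leaves. As YSL3 was chosen for that pattern, nothing is read from its calls. The median log2 difference of that list was 0.50 in roots and 0.84 in leaves. VTL1 and VTL5, vacuolar iron transporter-like proteins, rose in roots (log2 3.09, SE 0.11, adjusted p = 1.78e-08 and log2 4.97, SE 0.16, adjusted p = 7.29e-09); VTL1 also rose in leaves (log2 0.84, SE 0.12, adjusted p = 3.29e-04), while VTL5 was at 2.697 ± 0.696 CPM in Columbia-0 against 2.22 ± 0.3702 CPM in opt3-2 leaves. FER3, a ferritin of plastids, rose in both organs, in roots from 34.99 to 46.2 CPM (log2 0.49, SE 0.08, adjusted p = 0.0012) and in leaves from 24.9 to 102 CPM (log2 2.00, SE 0.08, adjusted p = 1.30e-07).

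Sulfur and methionine metabolism held 5 members, and the transcript of a sulfate transporter moved against the others. SULTR1;2 (AT1G78000), the main high-affinity sulfate transporter of the root surface, was lower in opt3-2 roots and higher in opt3-2 leaves. Columbia-0 roots held SULTR1;2 at 732, 631 and 641 CPM, and opt3-2 roots at 318, 343 and 375 CPM. Columbia-0 leaves held SULTR1;2 at 11.01, 13.3 and 10.7 CPM, and opt3-2 leaves at 29.1, 26.8 and 25.6 CPM. Every opt3-2 root replicate lay below every Columbia-0 root replicate, and leaf levels stayed far below root levels in both genotypes. The log2 ratios were -0.95 in roots and 1.22 in leaves. APS3 (AT4G14680), an ATP sulfurylase of the family that activates sulfate in the next step, was higher in roots and lower in leaves. APS3 was counted in roots at 13.1, 15.3 and 22.1 CPM in Columbia-0 and at 50.3, 78.9 and 92.6 CPM in opt3-2. APS3 leaf levels were 59.5, 56.3 and 53.4 CPM in Columbia-0 against 26.9, 26.1 and 24.2 CPM in opt3-2. Leaves held more APS3 transcript than roots in Columbia-0, and in opt3-2 the 3 root replicates lay above the 3 leaf replicates. For APS3 the log2 ratios were 2.14 in roots and -1.13 in leaves. MS2 (AT3G03780), a methionine synthase, stood at 494, 493 and 422 CPM in Columbia-0 against 765, 942 and 983 CPM in opt3-2 roots, and at 507, 344 and 326 against 253, 261 and 217 CPM in leaves. PMSR2 (AT5G07460), which repairs oxidised methionine residues, had log2 ratios of 0.60 in roots and -0.91 in leaves. SBP2 (AT4G14040), a selenium-binding protein, had log2 ratios of 0.82 in roots and -0.62 in leaves. On a list of sulfate and sulfur deficiency genes that holds SULTR1;2, of 14 tested genes, 0 were called higher and 4 lower in opt3-2 roots, and 4 higher and 1 lower in opt3-2 leaves. SULTR1;2, chosen for its pattern, is among those lower in roots and higher in leaves, and nothing is read from its calls. The median log2 difference of that list was -0.22 in roots and 0.36 in leaves. GGCT2;1, a gamma-glutamyl cyclotransferase that recycles glutathione, rose in leaves (log2 1.34, SE 0.23, adjusted p = 0.0012) and was at 0.836 ± 0.137 CPM in Columbia-0 against 0.732 ± 0.297 CPM in opt3-2 roots. SULTR4;1, a vacuolar sulfate exporter, fell in roots (log2 -0.27, SE 0.08, adjusted p = 0.0473), a call lost in 10 of 12 fits that left out a replicate, with the replicate block (adjusted p = 0.0507), with the RLE factors and with no filter (adjusted p up to 0.172 over all of these). SULTR4;1 was at 48.8 ± 2.69 CPM in Columbia-0 against 56.8 ± 2.56 CPM in opt3-2 leaves. SDI1, a marker of sulfur deficiency, was at 4.55 ± 1.44 CPM in Columbia-0 against 2.28 ± 1.22 CPM in opt3-2 roots and at 3.87 ± 1.03 CPM in Columbia-0 against 6.96 ± 2.32 CPM in opt3-2 leaves, and did not pass the test in either organ.

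Nitrogen and amino acid metabolism held 6 members. Transcripts of a nitrate reductase and a urea transporter were lower in opt3-2 roots, and that of an asparagine synthetase was higher. NIA1 (AT1G77760), a nitrate reductase, catalyses the first step of nitrate reduction. In roots, NIA1 stood at 1746, 1558 and 1602 CPM in Columbia-0 against 937, 872 and 1061 CPM in opt3-2. In leaves, NIA1 stood at 171, 139.6 and 161 CPM in Columbia-0 against 317, 309 and 385 CPM in opt3-2. NIA1 remained more abundant in roots than in leaves in both genotypes, but the gap between organs was narrower in opt3-2. The log2 ratios were -0.77 in roots and 1.10 in leaves. DUR3 (AT5G45380) is a high-affinity urea transporter of roots that also retrieves urea from senescing leaves. Columbia-0 roots held DUR3 at 265, 195 and 249 CPM, and opt3-2 roots at 108, 97.8 and 91.1 CPM. Columbia-0 leaves held DUR3 at 46.8, 51.98 and 64.4 CPM, and opt3-2 leaves at 140.3, 139 and 142 CPM. Root levels exceeded leaf levels in Columbia-0, and all opt3-2 leaf replicates exceeded all opt3-2 root replicates. For DUR3 the log2 ratios were -1.25 in roots and 1.37 in leaves. GLU2 (AT2G41220), a ferredoxin-dependent glutamate synthase, had log2 ratios of -0.63 in roots and 0.61 in leaves. ASN1 (AT3G47340), a glutamine-dependent asparagine synthetase known as a dark-inducible, sugar-repressed gene, ran the other way. ASN1 was counted in roots at 46.2, 31.96 and 31.3 CPM in Columbia-0 and at 109, 93.1 and 77.9 CPM in opt3-2. ASN1 leaf levels were 131, 211 and 197 CPM in Columbia-0 against 87.5, 79.3 and 79.9 CPM in opt3-2. The opt3-2 leaf replicates were tightly grouped and below every Columbia-0 leaf replicate. For ASN1 the log2 ratios were 1.35 in roots and -1.13 in leaves. ACR6 (AT3G01990), a protein of ACT domains, the fold that senses amino acids in bacterial regulators, was at low levels. In roots, ACR6 stood at 2.66, 1.88 and 3.06 CPM in Columbia-0 against 7.82, 7.21 and 6.55 CPM in opt3-2. In leaves, ACR6 stood at 7.55, 7.14 and 7.66 CPM in Columbia-0 against 4.35, 4.83 and 3.98 CPM in opt3-2. ACR6 was higher in leaves than in roots of Columbia-0 and higher in roots than in leaves of opt3-2, with log2 ratios of 1.51 in roots and -0.76 in leaves. GDH3 (AT3G03910), a glutamate dehydrogenase, had log2 ratios of 1.01 in roots and -0.52 in leaves.

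A list of 8 nitrate genes had 3 called in opposite directions, NIA1, which was chosen for that pattern, and 2 nitrate transporters. As background, of all 21692 genes tested, 1.55% were called in opposite directions (0.774% higher in roots and lower in leaves, 0.779% the reverse). Nothing is read from the call of NIA1. Of the list's 8 tested genes, 1 were called higher and 4 lower in opt3-2 roots, and 2 higher and 1 lower in opt3-2 leaves. The median log2 difference of that list was -0.43 in roots and 0.02 in leaves. NRT1.1, the dual-affinity nitrate transporter and sensor of the root, fell in roots (log2 -1.27, SE 0.13, adjusted p = 4.77e-05) from 875 to 340.3 CPM. It rose in leaves (log2 0.41, SE 0.13, adjusted p = 0.0318), a call lost with the RLE factors (adjusted p = 0.0590) and without Columbia-0 leaf replicate 2 or 3 or any of the 3 opt3-2 leaf replicates (adjusted p up to 0.161). NRT1.1 was no member because its leaf ratio did not reach 1.4 (65.7 ± 8.56 CPM in Columbia-0 against 89.8 ± 4.49 CPM in opt3-2 leaves). NRT1.8, which unloads nitrate from the xylem and is known to be induced by cadmium, rose in roots from 3.19 to 136 CPM (log2 5.50, SE 0.29, adjusted p = 2.71e-07). NRT1.8 fell in leaves (log2 -1.29, SE 0.35, adjusted p = 0.0167) at levels under the floor of the rule (2.53 ± 1.36 CPM in Columbia-0 against 1.08 ± 0.1497 CPM in opt3-2 leaves), a call lost without Columbia-0 leaf replicate 3 (log2 -0.81, adjusted p = 0.0686) or opt3-2 leaf replicate 2 (adjusted p = 0.0503). NIR1, nitrite reductase, fell in roots (log2 -0.76, SE 0.10, adjusted p = 5.10e-04) and was at 293 ± 35.1 CPM in Columbia-0 against 264 ± 6.46 CPM in opt3-2 leaves.

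The 5 other transporters were all lower in opt3-2 roots and higher in opt3-2 leaves. AT2G17500, an auxin efflux carrier family protein of the PILS type, was chiefly a root transcript. AT2G17500 was counted in roots at 203, 215 and 190.2 CPM in Columbia-0 and at 82.5, 102 and 87.9 CPM in opt3-2. AT2G17500 leaf levels were 3.13, 2.97 and 4.28 CPM in Columbia-0 against 12.5, 10.01 and 13.3 CPM in opt3-2. Its opt3-2 leaf replicates were each above all Columbia-0 leaf replicates, though still far below any root replicate. For AT2G17500 the log2 ratios were -1.16 in roots and 1.79 in leaves. CHX16 (AT1G64170), a cation/proton exchanger, changed its order between organs. In roots, CHX16 stood at 41.8, 32.6 and 33.8 CPM in Columbia-0 against 18.9, 17.8 and 16.7 CPM in opt3-2. In leaves, CHX16 stood at 3.71, 4.42 and 5.78 CPM in Columbia-0 against 23.7, 21.97 and 24.4 CPM in opt3-2. Columbia-0 roots were the highest group for CHX16, and in opt3-2 every leaf replicate lay above every root replicate, with log2 ratios of -1.02 in roots and 2.33 in leaves. ABCC4 (AT2G47800), a transporter of the multidrug resistance-associated family, had log2 ratios of -0.75 in roots and 1.05 in leaves. ABCB4 (AT2G47000), an auxin transporter of the root, had log2 ratios of -0.54 in roots and 1.09 in leaves. AT3G63380, annotated as an ATPase of the cation-pumping E1-E2 type, had log2 ratios of -0.57 in roots and 1.49 in leaves.

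Among 8 members of aromatic, steroid and oxidative metabolism, BEN1 (AT2G45400), a reductase that lowers brassinosteroid levels, was higher in opt3-2 roots and lower in opt3-2 leaves. BEN1 was counted in roots at 34.1, 40.8 and 35.3 CPM in Columbia-0 and at 112, 184 and 171 CPM in opt3-2. BEN1 leaf levels were 7.63, 7.29 and 6.59 CPM in Columbia-0 against 2.92, 3.72 and 3.62 CPM in opt3-2. The lowest opt3-2 root replicate was above the highest Columbia-0 root replicate by a wide margin, and leaf levels were low in both genotypes. For BEN1 the log2 ratios were 2.08 in roots and -1.07 in leaves. AT1G52800, of the 2-oxoglutarate and iron-dependent oxygenase superfamily, had the largest root decrease of the set. In roots, AT1G52800 stood at 21.7, 14.04 and 14.8 CPM in Columbia-0 against 7.15, 5.86 and 4.64 CPM in opt3-2. In leaves, AT1G52800 stood at 4.46, 4.05 and 4.77 CPM in Columbia-0 against 18.5, 18.5 and 18.1 CPM in opt3-2. The opt3-2 leaf replicates differed little from each other and reached the level of Columbia-0 roots, so that the gene changed organs: root-high in Columbia-0, leaf-high in opt3-2. For AT1G52800 the log2 ratios were -1.52 in roots and 2.05 in leaves. FAH1 (AT4G36220), ferulate 5-hydroxylase, the P450 enzyme that leads to sinapate esters and syringyl lignin, followed the same direction. Columbia-0 roots held FAH1 at 95.1, 109 and 82.2 CPM, and opt3-2 roots at 37.7, 48.4 and 56.03 CPM. Columbia-0 leaves held FAH1 at 108, 96.00 and 118 CPM, and opt3-2 leaves at 259, 245 and 240.4 CPM. Root and leaf levels of FAH1 overlapped in Columbia-0, and in opt3-2 all leaf replicates stood well above all root replicates. For FAH1 the log2 ratios were -1.01 in roots and 1.21 in leaves. CYP71B23 (AT3G26210), another P450 enzyme, was similar. CYP71B23 was counted in roots at 61.6, 58.3 and 50.4 CPM in Columbia-0 and at 28.4, 26.8 and 29.5 CPM in opt3-2. CYP71B23 leaf levels were 43.6, 47.2 and 69.2 CPM in Columbia-0 against 134, 135 and 162 CPM in opt3-2. Its log2 ratios were -1.01 in roots and 1.43 in leaves, and leaf replicates of Columbia-0 scattered more than those of the other groups in relative terms. AT5G59530, another oxygenase of the 2-oxoglutarate type, was nearly a root transcript in Columbia-0 at 47.03, 40.8 and 36.8 CPM in roots and 0.625, 0.781 and 1.01 CPM in leaves. It stood at 29.1, 29.7 and 27.5 CPM in opt3-2 roots and 8.199, 7.48 and 7.002 CPM in opt3-2 leaves, with log2 ratios of -0.53 in roots and 3.23 in leaves. AT3G55700, a UDP-glycosyltransferase family protein, had log2 ratios of -0.57 in roots and 3.25 in leaves from Columbia-0 leaf levels of only 0.208, 0.632 and 0.941 CPM. ADT5 (AT5G22630), an arogenate dehydratase of phenylalanine synthesis, and ATR2 (AT4G30210), the reductase that supplies P450 enzymes of the phenylpropanoid pathway with electrons, were higher in roots (log2 1.00 and 0.78) and lower in leaves (-0.62 and -0.50). FAH1 and ATR2, an enzyme of that pathway and an electron donor to such enzymes, lay in opposite directions.

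Sugar, cell wall, phosphate and lipid functions held 15 members. XTH24 (AT4G30270), an enzyme that cuts and rejoins xyloglucan in the wall, was mainly a leaf transcript. XTH24 was counted in roots at 18.9, 12.1 and 15.8 CPM in Columbia-0 and at 50.6, 46.4 and 38.9 CPM in opt3-2. XTH24 leaf levels were 299.7, 389.8 and 329.6 CPM in Columbia-0 against 222, 187 and 179.5 CPM in opt3-2. XTH24 remained higher in leaves than in roots in both genotypes, with a smaller gap in opt3-2, and its log2 ratios were 1.54 in roots and -0.79 in leaves. AT1G29670, a GDSL lipase-like protein, showed the same arrangement. In roots, AT1G29670 stood at 2.83, 4.04 and 2.13 CPM in Columbia-0 against 6.24, 5.79 and 8.402 CPM in opt3-2. In leaves, AT1G29670 stood at 99.7, 124 and 90.8 CPM in Columbia-0 against 46.3, 52.8 and 51.5 CPM in opt3-2. For AT1G29670 the log2 ratios were 1.18 in roots and -1.06 in leaves. SFH3 (AT2G21540), a SEC14-like lipid transfer protein, was a root-high transcript. Columbia-0 roots held SFH3 at 16.7, 24.5 and 17.8 CPM, and opt3-2 roots at 27.6, 50.7 and 48.8 CPM. Columbia-0 leaves held SFH3 at 9.59, 8.14 and 8.47 CPM, and opt3-2 leaves at 5.55, 5.18 and 4.36 CPM. The gap between the highest Columbia-0 root replicate and the lowest opt3-2 root replicate of SFH3 was small beside the spread within groups, and the log2 ratios were 1.11 in roots and -0.80 in leaves. The neighbouring gene AT2G21530 overlaps SFH3 on the opposite strand and was itself a leaf transcript (62.7 CPM on average in Columbia-0 leaves), and as it is unknown whether counting used strand, reads in the overlap cannot be assigned between them. PAP17 (AT3G17790), a purple acid phosphatase induced by phosphate deficiency, ran the other way. PAP17 was counted in roots at 8.399, 6.63 and 6.698 CPM in Columbia-0 and at 4.83, 5.14 and 4.57 CPM in opt3-2. PAP17 leaf levels were 11.1, 9.33 and 12.4 CPM in Columbia-0 against 16.2, 16.8 and 16.9 CPM in opt3-2. The differences of PAP17 were small in both organs, with no overlap of replicates, and the log2 ratios were -0.58 in roots and 0.60 in leaves. PAP17 also overlaps a gene on the opposite strand, AT3G17800, over 122 bases.

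Of the others in that group, ATBFRUCT1 (AT3G13790), a cell wall invertase that splits sucrose outside the cell, was counted at 14.01, 15.5 and 28.4 CPM in Columbia-0 leaves and 60.6, 63.02 and 72.4 CPM in opt3-2 leaves. In roots it was counted at 216, 240.2 and 202 CPM and 141, 148 and 163 CPM, respectively, and its log2 ratios were -0.54 in roots and 1.76 in leaves. TPPJ (AT5G65140), a trehalose-6-phosphate phosphatase, and EXLB1 (AT4G17030), an expansin-like protein, were higher in roots (log2 1.09 and 0.86) and lower in leaves (-0.68 and -0.62), as was the glycosyltransferase AT3G11420 (0.88 and -0.57). PLDP2 (AT3G05630), a phospholipase D of membrane lipid recycling under phosphate limitation, KCS5 (AT1G25450), of very long chain fatty acid elongation, XGD1 (AT5G33290), of xylogalacturonan synthesis, the alpha-dioxygenase ALPHA DOX2 (AT1G73680), AT3G23510, AT4G27480 and AT5G55050 were lower in roots (log2 -0.89 to -0.50) and higher in leaves (0.50 to 1.60). On a list of phosphate starvation genes that holds PAP17, of 13 tested genes, 0 were called higher and 2 lower in opt3-2 roots, and 3 higher and 4 lower in opt3-2 leaves. PAP17, chosen for its pattern, is among those lower in roots and higher in leaves, and nothing is read from its calls. The median log2 difference of that list was -0.23 in roots and -0.04 in leaves. PHT1;4, a phosphate transporter, rose in leaves (log2 1.71, SE 0.23, adjusted p = 3.08e-04) and was at 11.95 ± 1.13 CPM in Columbia-0 against 9.02 ± 0.5103 CPM in opt3-2 roots. SPX1, a phosphate sensor, also rose in leaves (log2 0.87, SE 0.11, adjusted p = 2.37e-04) and was at 12.4 ± 1.81 CPM in Columbia-0 against 12.97 ± 1.63 CPM in opt3-2 roots. MGD3, of galactolipid synthesis, fell in leaves (log2 -1.87, SE 0.41, adjusted p = 0.0058) and was at 3.21 ± 0.586 CPM in Columbia-0 against 2.22 ± 1.07 CPM in opt3-2 roots.

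Protein turnover and folding held 9 members. PUB23 (AT2G35930), a U-box ubiquitin ligase that dampens immune and drought signalling, had the largest leaf decrease of the set and the widest scatter. PUB23 was counted in roots at 35.97, 60.8 and 114 CPM in Columbia-0 and at 127, 162 and 451 CPM in opt3-2. PUB23 leaf levels were 35.5, 16.1 and 13.5 CPM in Columbia-0 against 6.93, 7.84 and 8.75 CPM in opt3-2. The highest Columbia-0 root replicate lay just below the lowest opt3-2 root replicate, and in both genotypes replicate 3 was the highest root sample. Replicate 1 of Columbia-0 leaves stood above the other leaf samples. For PUB23 the log2 ratios were 1.81 in roots and -1.47 in leaves. BRG2 (AT1G79110), a RING-type ubiquitin ligase that restrains cell death, moved in the other direction. In roots, BRG2 stood at 20.1, 16.05 and 16.9 CPM in Columbia-0 against 8.56, 7.54 and 5.95 CPM in opt3-2. In leaves, BRG2 stood at 12.2, 15.2 and 17.3 CPM in Columbia-0 against 38.3, 42.4 and 47.8 CPM in opt3-2. BRG2 levels overlapped between organs in Columbia-0 and were separated in opt3-2, where leaves were the higher organ, with log2 ratios of -1.27 in roots and 1.52 in leaves. GAMMA-VPE (AT4G32940), a vacuolar processing protease, was abundant at 378, 452 and 504 CPM in Columbia-0 leaves and 896, 853 and 792 CPM in opt3-2 leaves, with log2 ratios of -0.63 in roots and 0.93 in leaves. The chaperones Hsp70-2 (AT5G02490) and ATERDJ3A (AT3G08970, of the endoplasmic reticulum) and the peptidyl-prolyl isomerase AT5G48570 were lower in roots (log2 -0.51, -0.53 and -0.73) and higher in leaves (1.18, 1.31 and 0.57). So were the vacuolar sorting receptor VSR5 (AT2G34940) and the RING finger protein AT1G14260, with leaf log2 ratios of 1.36 and 1.80. The serine carboxypeptidase-like scpl20 (AT4G12910) was higher in roots (1.06) and lower in leaves (-0.57).

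Of 11 members of signalling and defence, 9 were lower in opt3-2 roots and higher in opt3-2 leaves. YLS9 (AT2G35980), also known as NHL10, a marker of leaf senescence and of immune activation, had the largest leaf increase of the set. In roots, YLS9 stood at 7.52, 12.2 and 11.2 CPM in Columbia-0 against 4.603, 4.01 and 7.16 CPM in opt3-2. In leaves, YLS9 stood at 1.17, 0.9295 and 2.73 CPM in Columbia-0 against 17.2, 12.7 and 18.3 CPM in opt3-2. The 3 Columbia-0 leaf replicates were the lowest samples, and the highest opt3-2 root replicate came close to the lowest Columbia-0 root replicate. For YLS9 the log2 ratios were -0.97 in roots and 3.32 in leaves. PFA-DSP1 (AT1G05000), an atypical dual-specificity phosphatase, and AT4G00700, a protein of C2 domains, had leaf log2 ratios of 2.38 and 2.09 and root log2 ratios of -0.75 and -0.62. HR3 (AT3G50470), a homologue of the resistance protein RPW8, and CBL9 (AT5G47100), a calcium sensor of potassium and abscisic acid signalling, had leaf log2 ratios of 0.97 and 0.51. The receptor-like kinases AT5G59660, AT1G51790, MEE62 (AT5G45800) and AT2G19130 had root log2 ratios from -1.16 to -0.50 and leaf log2 ratios from 0.64 to 1.30. ROPGAP3 (AT2G46710), which turns off ROP GTPases, and the ankyrin protein AT5G54710 were the 2 in the other direction, with log2 ratios of 1.20 in roots and -0.69 in leaves for the first and 1.07 in roots and -0.70 in leaves for the second. The root difference of AT5G54710 owed much to replicate 3 of opt3-2 roots, at 22.2 CPM beside 6.66 and 7.83 CPM in the others.

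Transcription and RNA functions held 12 members, 9 of them lower in roots and higher in leaves. ATOBGM (AT1G07620), annotated as an Obg-type GTP-binding protein, was the member of this group with the largest difference common to both organs. ATOBGM was counted in roots at 39.3, 37.4 and 30.97 CPM in Columbia-0 and at 14.9, 13.5 and 17.7 CPM in opt3-2. ATOBGM leaf levels were 13.2, 14.3 and 20.5 CPM in Columbia-0 against 32.7, 27.9 and 35.4 CPM in opt3-2. Root levels exceeded leaf levels of ATOBGM in Columbia-0 and the reverse held in opt3-2, with log2 ratios of -1.22 in roots and 1.00 in leaves. NAC046 (AT3G04060), a NAC factor that promotes chlorophyll breakdown in senescing leaves, was counted at 3.04, 3.01 and 3.54 CPM in Columbia-0 leaves and 7.93, 7.92 and 7.71 CPM in opt3-2 leaves. In roots NAC046 was counted at 71.4, 63.2 and 68.99 CPM and 34.2, 40.8 and 42.1 CPM, and its log2 ratios were -0.80 in roots and 1.30 in leaves. Other factors in this direction were NAM (AT1G52880, a NAC factor), NF-YA2 (AT3G05690, a CCAAT-binding subunit) and BEL1 (AT5G41410, a homeodomain factor of ovule development), with root log2 ratios of -0.66, -0.62 and -0.81 and leaf log2 ratios of 0.66, 0.64 and 0.58. AGO7 (AT1G69440), the argonaute of trans-acting small RNA production, and NRPC1 (AT5G60040), the largest subunit of RNA polymerase III, had leaf log2 ratios of 0.60 and 0.55. AT4G26990 and AT1G29240 had leaf log2 ratios of 0.51 and 0.54. RAP2.1 (AT1G46768), a repressor in the cold and drought response, AT3G54880 and AT5G10800, annotated as an RNA-binding protein, were higher in roots (log2 0.50, 1.30 and 1.10) and lower in leaves (-0.51, -0.58 and -0.55).

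Another 16 members are of other or little-known function. AT5G55620, annotated as an uncharacterized protein, had the largest difference of all. In roots, AT5G55620 stood at 0.455, 0.226 and 0.155 CPM in Columbia-0 against 41.5, 81.4 and 60.5 CPM in opt3-2. In leaves, AT5G55620 stood at 82.5, 68.4 and 61.4 CPM in Columbia-0 against 51.1, 46.9 and 40.3 CPM in opt3-2. The gene was a leaf transcript all but missing from Columbia-0 roots, and in opt3-2 its root and leaf levels were alike. Its root log2 ratio of 7.78 rests on a Columbia-0 mean of 0.279 CPM, and the leaf log2 ratio was -0.62. AT3G56360, likewise uncharacterized, stood at similar levels in both organs of Columbia-0. AT3G56360 was counted in roots at 135, 152 and 183 CPM in Columbia-0 and at 237, 265 and 296 CPM in opt3-2. AT3G56360 leaf levels were 139, 117 and 95.5 CPM in Columbia-0 against 48.8, 42.1 and 39.97 CPM in opt3-2. It was separated between organs in opt3-2, with roots higher, and the log2 ratios were 0.76 in roots and -1.42 in leaves. AT1G69890 encodes a protein of the actin cross-linking DUF569 family. Columbia-0 roots held AT1G69890 at 30.9, 31.8 and 52.5 CPM, and opt3-2 roots at 62.03, 54.3 and 96.7 CPM. Columbia-0 leaves held AT1G69890 at 17.9, 18.8 and 17.7 CPM, and opt3-2 leaves at 9.05, 9.87 and 11.96 CPM. Replicate 3 of Columbia-0 roots came within 2 CPM of the lowest opt3-2 root replicate of AT1G69890, and the log2 ratios were 0.89 in roots and -0.82 in leaves. AT4G17670, a senescence-associated protein of the DUF581 family, was lower in roots and higher in leaves. In roots, AT4G17670 stood at 45.8, 38.6 and 30.9 CPM in Columbia-0 against 22.7, 22.3 and 13.1 CPM in opt3-2. In leaves, AT4G17670 stood at 5.92, 5.35 and 7.82 CPM in Columbia-0 against 14.2, 15.5 and 19.6 CPM in opt3-2. For AT4G17670 the log2 ratios were -0.99 in roots and 1.37 in leaves, and in opt3-2 the organs overlapped. AT4G24350, a phosphorylase superfamily protein, was at 1.505, 1.13 and 2.09 CPM in Columbia-0 roots and 6.02, 6.56 and 7.16 CPM in opt3-2 roots, with log2 ratios of 2.06 in roots and -0.69 in leaves. The remaining members higher in roots were the CTP synthase AT1G30820, LEA14 (AT1G01470, a late embryogenesis abundant protein), AT2G32150, AT4G06534 and AT4G12690, with root log2 ratios of 0.50 to 0.85 and leaf log2 ratios of -1.22 to -0.57. The remaining members lower in roots were AT1G24530, AT1G65486, AT1G77145, AT2G17710, AT4G02005 and AT4G15070, with root log2 ratios of -0.93 to -0.51 and leaf log2 ratios of 0.55 to 1.65.

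**Figure D2:**
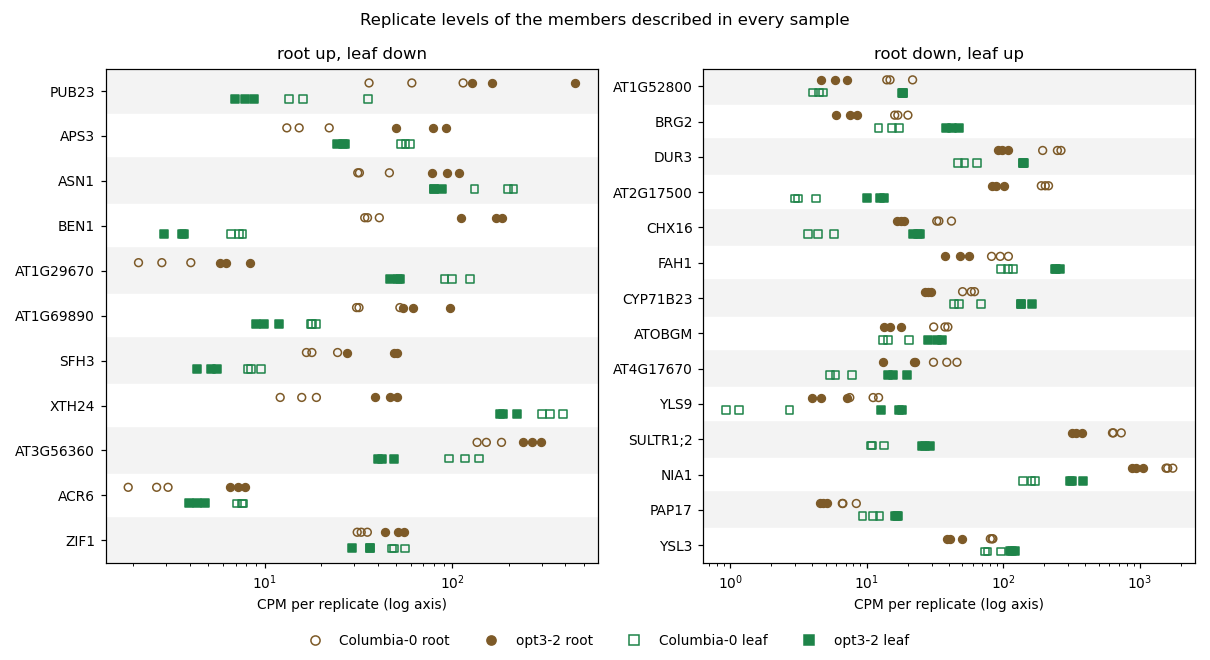
CPM of each of the 3 replicates per group (log axis) is plotted for the 25 members described in every sample, with those higher in roots and lower in leaves on the left. Circles are roots and squares leaves, open symbols Columbia-0 and filled symbols opt3-2; within each organ the open and filled symbols of a gene do not overlap, as the rule requires, and PUB23 shows the widest scatter.

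**Figure D3:**
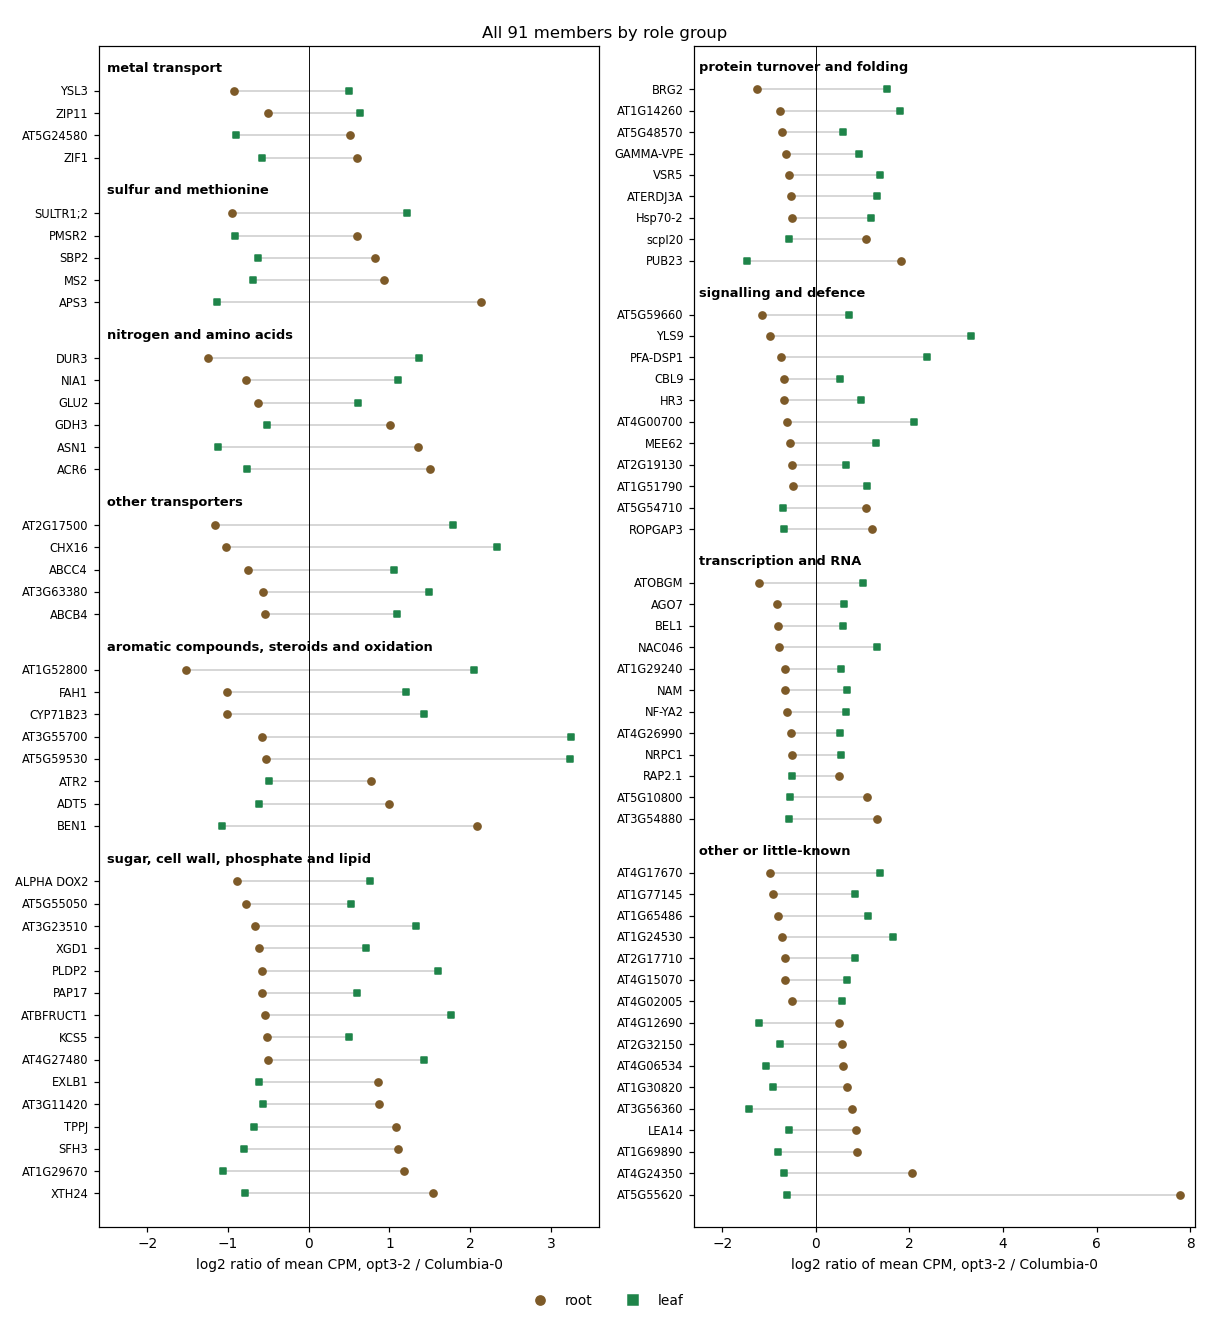
The log2 ratio of mean CPM (opt3-2 over Columbia-0) of all 91 members is plotted by role group, with circles for roots and squares for leaves joined by a line, and with a wider horizontal scale in the right panel. All 5 other transporters have the leaf square on the right, and 4 of the 5 sulfur and methionine genes have the root circle on the right.

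The role groups differed in their split between the directions, which was 34 to 57 over all 91 members. Genes higher in roots and lower in leaves made up 4 of 5 in sulfur and methionine, 3 of 6 in nitrogen, 2 of 4 in metal transport, 3 of 8 in aromatic and oxidative metabolism and 6 of 15 in sugar, wall and lipid functions. They made up 2 of 9 in protein turnover, 2 of 11 in signalling, 3 of 12 in transcription, none of the 5 other transporters and 9 of 16 others. The groups were drawn up by function after the members were known, and these counts carry no test. They also hold for total counts only. With TMM, 33 of the 34 met the rule but only 33 of the 57. Those of the 57 that did not included YSL3 and ZIP11 of metal transport and ABCB4 and AT3G63380 of the other transporters. In signalling they were YLS9, MEE62, CBL9, AT2G19130 and AT1G51790.

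The level floor of the rule asked for reads in both organs, but which organ was the higher did not enter it and could be tested. The floor did limit how low the other organ could be, and 1 genotype was enough to meet it. Roots met it for AT5G55620 through the mutant only (mean 61.1 CPM, wild type 0.279). Leaves met it for BEN1 through the wild type only (mean 7.17 CPM, mutant 3.42), but for SULTR1;2 through both. Sizes and ranks of the organ differences below are thus descriptions, and nothing is read from their order. The test averages over genotypes that differ in members by the rule, so a call need not hold in each genotype. The difference between the mean of both leaf groups and the mean of both root groups, a contrast apart from the genotype effects, was called for 80 of the 91 members, 37 higher in leaves and 43 higher in roots. The background was 81.3% of the 13342 genes above the level floor (41.9% higher in leaves, 39.4% higher in roots) and 84.1% of the 21692 genes tested (40.2% higher in leaves, 43.9% higher in roots), with no test of the members against them. Of the 34 genes higher in opt3-2 roots, 13 were called leaf-high and 18 root-high, and of the other 57, 24 and 25. The strongest root preference was that of SULTR1;2, with a log2 leaf over root difference of -4.30 (SE 0.09, adjusted p = 4.20e-13), followed by AT2G17500 at -3.94 (SE 0.11, adjusted p = 3.23e-12), BEN1 at -3.48 (SE 0.14, adjusted p = 1.75e-10) and AT5G59530 at -3.34 (SE 0.09, adjusted p = 4.20e-12). The strongest leaf preference was that of AT1G29670, at 4.45 (SE 0.16, adjusted p = 5.02e-11), and XTH24 was at 3.74 (SE 0.12, adjusted p = 1.57e-11). AT5G55620 stood at 4.23 (SE 0.22, adjusted p = 2.29e-09), a mean over a log2 leaf over root ratio of CPM of 7.99 in Columbia-0 and -0.41 in opt3-2. The organ contrast depended on the scaling. With total counts in place of TMM, a setting chosen after seeing the data, it was lower by 0.45 (median over members, log2). All 43 members called root-high were called so again, and 30 of the 37 called leaf-high, while the other 7 were not called. The share of calls that were leaf-high over all genes moved from 47.8% to 30.0%. Among metal transporters, ZIP11 was leaf-high at 2.57 (SE 0.09, adjusted p = 3.81e-11), YSL3 at 1.16 (SE 0.08, adjusted p = 5.49e-08) and ZIF1 at 0.49 (SE 0.08, adjusted p = 5.73e-05) but not with total counts (log2 0.03, adjusted p = 0.696), while AT5G24580 was root-high at -1.66 (SE 0.15, adjusted p = 5.61e-07). In nitrogen metabolism NIA1 was root-high at -1.99 (SE 0.09, adjusted p = 3.98e-10) and ASN1 leaf-high at 1.52 (SE 0.13, adjusted p = 2.66e-07). Not called were AT4G00700, YLS9, NRPC1, HR3, AT2G19130, AGO7, scpl20, LEA14, AT4G02005, ATR2 and AT3G63380, with log2 differences from -0.19 to 0.42. With the replicate number as a block within each organ, AT3G63380 (adjusted p = 0.0072) and AT4G00700 (adjusted p = 0.0476) were called as well. AT3G63380 was also called with RLE factors, with no filter, with DESeq2 and in 5 of 12 fits that left out a replicate, and AT4G00700 in 2 of them, and with total counts the value of AT3G63380 was -0.04. Of the 11 not called, 9 were called root-high with total counts.

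The organ of higher abundance changed between genotypes in 35 members, taking group means of CPM on total counts. With TMM it changed in 33 members, 27 of them among the 35, and the members counted with total counts alone were ASN1, ROPGAP3, BRG2, CYP71B23, GAMMA-VPE, Hsp70-2, AT4G27480 and YSL3. With total counts, of the 57, 26 were higher in roots of Columbia-0 and higher in leaves of opt3-2, 21 were higher in roots of both and 10 higher in leaves of both. Of the 34, 9 were higher in leaves of Columbia-0 and higher in roots of opt3-2, 18 were higher in roots of both and 7 higher in leaves of both. The difference between organs, as an absolute log2 ratio, was smaller in opt3-2 than in Columbia-0 in 37 of the 57 and in 13 of the 34, and with TMM in 28 and 16. These counts follow in part from the rule, which moves a gene towards leaves or towards roots, and are given without a test. AT1G52800, which changed organ with either scaling, went from -1.93 in Columbia-0 to 1.64 in opt3-2 (log2 leaf over root, total counts), and AT5G55620 went from 7.99 to -0.41.

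**Figure D4:**
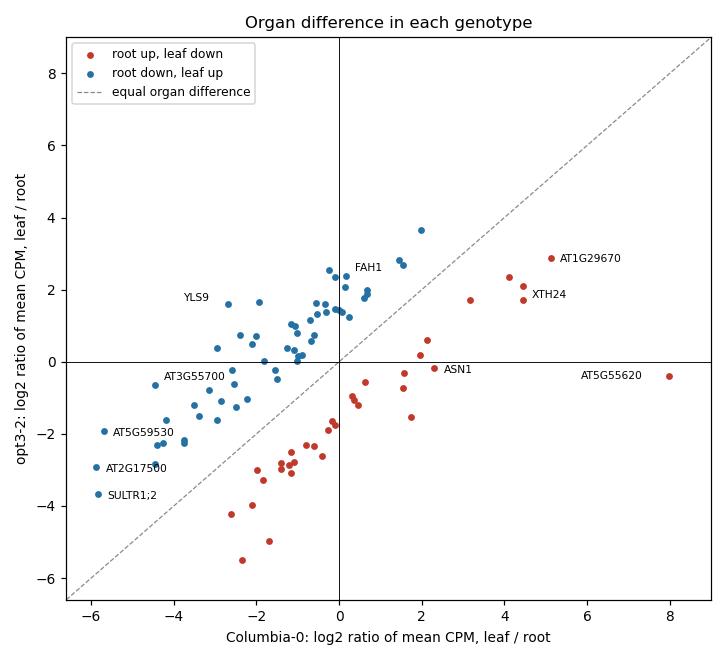
The log2 ratio of mean CPM (on total counts) in leaf over root is plotted for each of the 91 members in Columbia-0 (horizontal axis) and in opt3-2 (vertical axis), with the dashed line at equal values. Blue points (lower in roots and higher in leaves) lie above the line and red points below it, as the rule fixes; the upper left quadrant holds the 26 members that went from root-high to leaf-high and the lower right quadrant the 9 that went the other way.

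Over 12 families of members with clear paralogues, 31 relatives were looked up and 30 had enough reads to test. In opt3-2 roots 8 were called higher and 2 lower (background 8.28% and 7.28%), and in leaves 4 higher and 5 lower (background 15.4% and 12.6%). The difference between the leaf and the root effect was called for 7 of the 30 (background 16.1%, with the leaf effect the higher in 8.45% and the lower in 7.69%). A single relative, MS1 (AT5G17920), was called in opposite directions, the same as those of MS2 (background 1.55%). MS1 was at 2725 ± 125 CPM in Columbia-0 against 3480 ± 355 CPM in opt3-2 roots (log2 0.44, SE 0.12, adjusted p = 0.0241) and at 1485 ± 129 CPM in Columbia-0 against 1185 ± 54.8 CPM in opt3-2 leaves (log2 -0.36, SE 0.12, adjusted p = 0.036). The root call of MS1 was lost without any of the 3 Columbia-0 root replicates or without opt3-2 root replicate 2 (adjusted p up to 0.0856), and the leaf call without Columbia-0 leaf replicate 1 or any opt3-2 leaf replicate (adjusted p up to 0.1055). As near-identical coding sequences can share reads, the split of counts between MS1 and MS2 is uncertain. GDH2, a subunit of glutamate dehydrogenase, rose in roots as GDH3 was higher there (log2 1.07, SE 0.13, adjusted p = 1.69e-04), and was at 41.02 ± 2.11 CPM in Columbia-0 against 43.2 ± 1.196 CPM in opt3-2 leaves. ADT4, related to ADT5, rose in roots (log2 1.00, SE 0.14, adjusted p = 5.63e-04) and was at 48.3 ± 1.698 CPM in Columbia-0 against 57.9 ± 0.637 CPM in opt3-2 leaves. ZIFL1, a neighbour of ZIF1 on chromosome 5, rose in roots (log2 0.58, SE 0.09, adjusted p = 9.97e-04) and was at 9.26 ± 0.7805 CPM in Columbia-0 against 10.5 ± 0.153 CPM in opt3-2 leaves. Among cell wall invertases related to ATBFRUCT1, cwINV6 rose in leaves (log2 1.53, SE 0.22, adjusted p = 4.59e-04) and cwINV3 fell in leaves (log2 -0.72, SE 0.11, adjusted p = 7.15e-04), and their root levels were 50.2 ± 7.23 CPM in Columbia-0 against 64.1 ± 18.2 CPM in opt3-2 roots and 21.9 ± 0.996 CPM in Columbia-0 against 24.6 ± 2.04 CPM in opt3-2 roots, respectively. PMSR1, a relative of PMSR2, rose in leaves (log2 0.58, SE 0.08, adjusted p = 2.89e-04), where PMSR2 was lower, and was at 18.98 ± 0.689 CPM in Columbia-0 against 18.9 ± 2.24 CPM in opt3-2 roots.

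Members were spread over all 5 chromosomes, with 18, 8, 11, 8 and 12 of the 57 and 5, 5, 7, 9 and 8 of the 34 on chromosomes 1 to 5. In the RefSeq annotation 23 of the 91 overlap another annotated gene, 21 a gene of the count table, and 18 of these on the opposite strand. Without knowledge of whether counting used strand, reads in such overlaps could come from either gene. Among the members described in every sample, the overlapping genes of ASN1, AT1G29670 and ACR6 were hardly expressed, and ROXY1, over 798 bases of ACR6, reached no more than 0.4102 CPM on average in any group. Besides those of SFH3 and PAP17, the neighbour of AT2G17500 was expressed, EMB2763 at 63.7 CPM on average in Columbia-0 roots, with 43 bases shared. PUB23 overlaps AT2G35935 over 988 of its 1705 bases and APS3 overlaps AT4G14675 over 16 bases, both on the opposite strand. These 2 neighbours are absent from the count table, so their levels are not known. If counting ignored strand, the values of PUB23 could include reads of AT2G35935, which was not tested.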

How the data were processed

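RNA from pools of 3 to 4 plants was made into libraries and sequenced, per the labels' protocols. The submitters' processing notes name TopHat2, edgeR and the build TAIR10, without versions. Which program counted the reads, on which annotation and with what use of strand is not given in those sources. Deposited by the authors are raw counts of reads per gene, whole numbers with no normalization, for 28775 genes, per the file headers and the values. Its columns number 72, of which 36 match the samples by name and 36 do not and were not used. The letter S in a column name was read as leaf, the organ other than R for root. The column names number the runs 1 to 3 for every opt3-2 replicate. In Columbia-0 the numbers are 5 to 7 for leaf replicate 3 and for replicates 1 and 2 of root, and 2 to 4 for the other 3 replicates. The single numbers 2 and 3 occur in both genotypes, but no whole set does, and what the numbers stand for is not given. Genotypes could thus not be compared within a set, and an effect of the opt3-2 set cannot be told apart from that of the genotype. A difference between the sets of Columbia-0 was not tested.

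The 3 runs of a replicate differed by little more than sampling noise (chi-square per degree of freedom 1.02 to 1.07, against 3.22 to 76.1 between replicates) and were summed. Summed depth was 23981444 to 37685493 counted reads per replicate. The labels call the replicates biological without naming separate cultures, and p-values therefore cover only the spread among the samples at hand, which may be technical. CPM were taken on total counts, and the rule for members was applied to them with no test.

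All genes were fitted in 1 model with edgeR 4.0.16 under R 4.3.3, tested by quasi-likelihood F tests, with TMM factors, filterByExpr (21692 genes), a mean for each group and 8 residual degrees of freedom. The common biological coefficient of variation was 0.137. Adjusted p-values are Benjamini-Hochberg over all genes tested, with a threshold of 0.05, and SE was taken from the F statistic. For members only the organ contrast was read as a test, as the rule had used the other contrasts. It was read for which organ was higher and not for the size of the difference, which the level floor limited. Counts of calls over a list include the member it holds. On counts simulated with a 2-fold organ effect in 200 of 21423 genes, the organ contrast called all 200 and 16 others. The simulation used 1 dispersion for all genes and no other difference between groups. It thus does not speak to these data, where 84.1% of genes tested were called and the scaling moved the contrast. Same-numbered root replicates deviated together (r = 0.628, 0.253 and 0.691 across genes), so the numbers may pair the roots, although Columbia-0 replicate 1 and opt3-2 replicate 2 also had r = 0.417. The main fit has no term for such a pairing, and p-values are from it unless the replicate block is named. With the block, run as an alternative, 3563 genes were called in roots, 2940 of them among the 3377 of the main fit. In leaves the values were -0.05, -0.04 and 0.11, and the numbers did not pair them. Between organs, same-numbered replicates had r = 0.35, 0.12 and 0.34 in opt3-2 and -0.38, -0.09 and -0.35 in Columbia-0. In Columbia-0, root replicate 3 with leaf replicate 1 had r = 0.37, and root replicate 1 with leaf replicate 3 had 0.32. The block was coded within each organ. Neither fit thus has a term for a tie between organs, which would bear on the organ contrast and was not tested.

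Values in every sample are given for members on a gene list and for the 10 members per direction with the largest smaller absolute log2 ratio. Lists are described where they hold a member or have at least 3 genes called oppositely, naming up to 3 other genes with the lowest p for the difference between organs. The members, the 23 lists, the role groups, the families and the rule for naming were chosen with earlier results of these data known. Gene symbols, starts and sequences are from the RefSeq annotation of TAIR10.1, which matched 28009 identifiers and left 766 unmatched. The exact annotation used for counting may differ. Alternatives tried were other scalings (RLE factors, and DESeq2 1.42.0 with its size factors), other thresholds, no filter, the replicate number as a block, and leaving out each of the 12 replicates. The edgeR fit on total counts with no factors, and the organ order under TMM and DESeq2 size factors, were added after seeing the data.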

Additional observations from a re-analysis of the deposited data

Results flagged for a closer look

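Genes outside the set were looked at where the genotype difference in leaves and in roots differed by edgeR's test of that difference itself. Values are log2 leaf effect minus log2 root effect. Below zero the leaf effect was the lower, as in the genes higher in roots and lower in leaves. In iron homeostasis the value was -8.65 for BHLH100, -5.30 for VTL5, -3.67 for MYB10, -2.25 for VTL1 and -0.77 for ILR3, and 1.51 for FER3, which rose in both organs. In nitrate use it was -6.79 for NRT1.8, 1.68 for NRT1.1 and 0.57 for NIR1, and in phosphate use 2.03 for PHT1;4 and 0.72 for SPX1. In sulfur use it was 1.45 for GGCT2;1 and 0.45 for SULTR4;1.

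Relatives of members gave values of -0.81 for MS1, -0.78 for ADT4, -1.03 for GDH2, -0.97 for cwINV3, 1.08 for cwINV6, -0.44 for ZIFL1 and 0.50 for PMSR1. The calls of ADT4 (adjusted p = 0.0199) were lost without Columbia-0 root replicate 1 or 2 (adjusted p = 0.0506 for each). ZIFL1 (adjusted p = 0.0363) was lost with the replicate block (adjusted p = 0.0614), with total counts (adjusted p = 0.109) and without replicate 2 or 3 of either genotype's roots. For GGCT2;1 7 of 12 fits lacking a replicate lost the call, for NIR1 6, for SULTR4;1 5 and for cwINV6 8, with adjusted p of no more than 0.0942.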

How the results depend on the processing

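The counts of members moved with the settings that define them. The 34 genes higher in roots and lower in leaves became 55 with TMM, 61 with DESeq2 size factors, 55 with a minimum mean of 2 CPM, 5 with ratio thresholds of 2 and 0.5, and 106 with no requirement on overlap. The 57 in the other direction became 35 with TMM, 34 with DESeq2 size factors, 34 with thresholds of 1.5 and 0.67, and 7 with thresholds of 2 and 0.5. Leaving out each replicate gave 31 to 71 and 53 to 81 genes, the 71 without Columbia-0 root replicate 3. Of the 91 members, 66 met the rule with TMM, 65 with DESeq2 size factors, and 52 in all 12 sets lacking a replicate. No ratio of a member changed sign, which the rule's terms fixed for the sets lacking a replicate and made likely for the other scalings. Genes called by edgeR in roots, 3377, ranged from 2074 to 4231 over fits lacking a replicate, lowest without Columbia-0 root replicate 2 and next without replicate 1 (2237). In leaves 6090 ranged from 4138 to 7189, for the difference between organs 3503 from 2503 to 4540, and for the organ contrast 18240 from 17977 to 18527, with 78 to 82 members called. The share of leaf calls that were higher fell from 55.0% to 46.8% with RLE factors, and that of the difference between organs from 52.4% to 43.0%. With the replicate block the counts were 18284, 3563, 6367 and 3760 for organ, root, leaf and difference, and the calls it changed are given with their genes. Organ effects that were not called and changed sign without a replicate were those of YLS9 (-0.3347 to 0.1069), HR3 (-0.0086 to 0.1386), AGO7 (-0.0018 to 0.1676) and NRPC1 (-0.1039 to 0.0303). Calls of the organ effect were also lost for AT1G52800 in 3 and ATERDJ3A in 8 fits lacking a replicate. With total counts in place of TMM, an alternative added after seeing the data, edgeR called 19260 genes for organ, 4304 between root groups, 5852 between leaf groups and 4440 for the interaction. The share of calls that were higher moved from 53.2% to 30.0% (root), from 55.0% to 62.2% (leaf) and from 52.4% to 73.5% (interaction). Organ effects that changed sign were those of scpl20 (-0.3719), LEA14 (-0.3541), ATR2 (-0.3236), AT1G52800 (-0.1419), ATOBGM (-0.0529), ABCC4 (-0.1076), HR3 (-0.4297), NF-YA2 (-0.0629), AGO7 (-0.3852), AT3G63380 (-0.0352), AT4G02005 (-0.3542) and AT2G19130 (-0.4147). Members that changed organ numbered 35 with total counts, 33 with TMM and 31 with DESeq2 size factors. Depth limits members with a group near 0, such as AT5G55620 in Columbia-0 roots and AT3G55700 in Columbia-0 leaves, where the values rest on few reads, since only 1 of the 2 groups of an organ had to reach the level floor. The causes of these shifts were not tested.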

Other observations

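The other 18 lists held no member. A few of their genes were called in opposite directions by edgeR's quasi-likelihood test all the same, all higher in opt3-2 roots and lower in opt3-2 leaves. They were picked after their values were seen and fell outside the rule for members or for naming. SUC2 and PP2-A1, a sucrose loader and a lectin of the phloem, had log2 differences of 0.47 and 0.61 in roots and -0.66 and -0.47 in leaves. On the abscisic acid and drought list, RD22 stood at 0.81 and -0.58 and the dehydrin LTI30 at 1.00 and -0.96. ABCG37, an exporter of coumarins that mobilise iron outside the root, stood at 3.13 and -0.84, and ELF4, a component of the evening complex of the clock, at 0.76 and -1.27. In the phloem list of 10 genes, 2 were called higher in roots and 6 lower in leaves. Of 17 jasmonate genes, 5 were called lower in opt3-2 leaves and none in roots, and of 15 glucosinolate genes, 13 were called lower in leaves and 3 lower in roots. Over all genes tested, 8.28% were called higher and 7.28% lower in roots, and 15.4% higher and 12.6% lower in leaves. These lists were picked after their values were seen, and others ran otherwise. Called higher in leaves were 8 of 14 salicylate defence genes and 7 of 10 tested oxidative stress genes. Of 11 copper deficiency genes, 6 were called lower in roots and 6 lower in leaves.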
